A study of Rattus norvegicus with 24 samples.

Results

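Transcripts of 9 enzymes that make, move or oxidize amino acids were examined in rat skeletal muscle. The set was given by gene symbol and consists of Glul, Prodh, Glud1, Got1, Got2, Gpt2, Bcat2, Bckdha and Bckdk. It was proposed with earlier results of these same counts in view, so its levels after monocrotaline are a description and carry no test. Of the 9 genes, 8 were among the 10851 genes of the count table. Bckdk, which encodes the kinase that switches off branched-chain ketoacid oxidation, was not analysed here.

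RNA came from the medial gastrocnemius of 24 male Wistar rats, with 6 rats in each of 4 groups and 1 library per rat. Sed rats received saline and stayed sedentary, Ex rats received saline and trained on a treadmill, CC-Sed rats received monocrotaline and stayed sedentary, and CC-Ex rats received monocrotaline and trained. Monocrotaline is a plant toxin that injures the lung vessels and overloads the right ventricle, and it was given once to model heart failure with cardiac cachexia (CC), the muscle loss of advanced heart failure. All groups shared a treadmill test to exhaustion before and after the training weeks, and rats that died or showed no enlargement of the right ventricle are absent from the CC groups, which limits what these groups stand for.

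Skeletal muscle is a main source of the glutamine in blood. In muscle, the amino groups of leucine, isoleucine and valine pass to glutamate, and glutamate then gives nitrogen to glutamine, alanine or aspartate, while the carbon skeletons are oxidized in the mitochondria. Proline is oxidized in the same compartment and yields glutamate. These enzymes therefore lie on joined routes, and in fasting and wasting the export of glutamine and alanine from muscle is a known feature.

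Total counts per rat lay between 37816239 and 50350554. CC-Ex replicate 5 stood apart on the leading principal component of all genes (39.7% of the variance), at 96.5 where the other 23 rats lay between -27.8 and 51.7. All 8 skeletal muscle fibre markers were measured and their summed level overlapped among the 4 groups. Levels below are CPM, the share of a library's counts scaled by TMM, which are not divided by transcript length and so are not compared between genes. A Log2FC is the edgeR estimate of monocrotaline over saline unless stated, with its standard error (SE), and a gene counted as differentially expressed (DEG) when its Log2FC was at least 1 in size with an adjusted p-value below 0.05. In whole muscle, fewer cells of a type and less RNA per cell cannot be told apart.

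**Figure D1:**
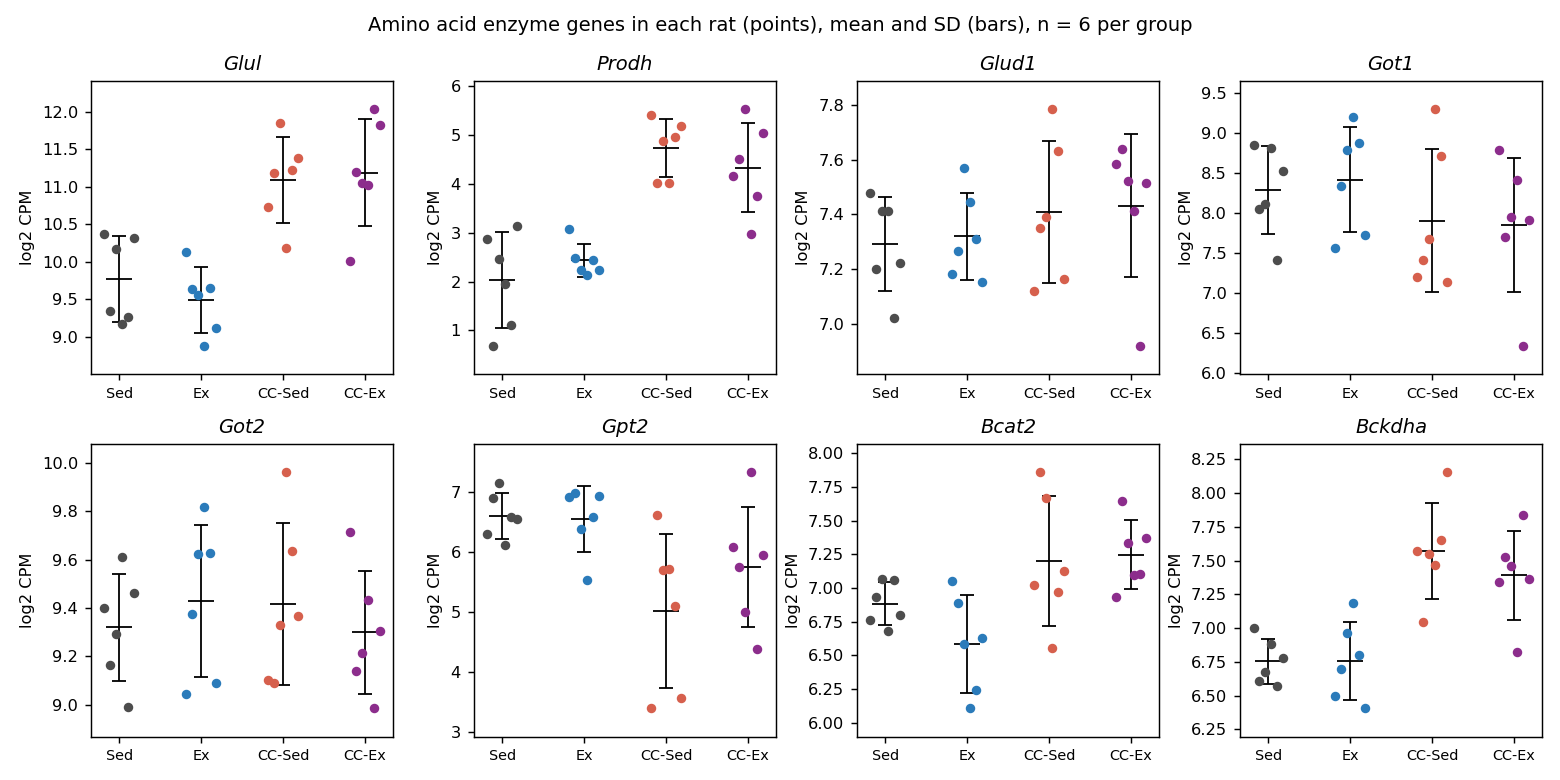
Level of each of the 8 measured enzymes (log2 CPM, vertical axis) in every rat, by group (horizontal axis). Points are rats, and the bars give the mean and SD of 6 rats. Glul and Prodh sit higher in both CC groups, Bckdha is higher in all CC-Sed rats than in all Sed rats, and Gpt2 spreads widely in the CC groups.

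Glul encodes glutamine synthetase, which joins ammonia to glutamate. Its level in Sed rats had a lowest value of 573 CPM, a median of 901 CPM and a highest value of 1325 CPM. In CC-Sed rats these values were 1163, 2364 and 3705 CPM. All but 1 of the 6 CC-Sed rats lay above every Sed rat, and the exception, CC-Sed replicate 4, lay inside the Sed range. Among trained rats, Ex ran from 471 CPM through a median of 771 CPM to 1124 CPM, and CC-Ex from 1034 through 2235 to 4189 CPM. CC-Ex replicate 1 was the only CC-Ex rat below the highest Ex rat. The Log2FC was 1.32 ± 0.32 (SE) in sedentary rats, a 2.50-fold difference, and 1.78 ± 0.32 in trained rats, a 3.42-fold difference.

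Prodh encodes proline dehydrogenase, the mitochondrial enzyme that starts proline oxidation. It ranged from 1.61 to 8.78 CPM in Sed rats (median 4.67 CPM) and from 16.1 to 42.4 CPM in CC-Sed rats (median 30.3 CPM), so these groups did not overlap. In Ex rats it ranged from 4.40 to 8.46 CPM (median 5.10 CPM) and in CC-Ex rats from 7.87 to 46.1 CPM (median 20.4 CPM). The trained groups overlapped only through CC-Ex replicate 4 and Ex replicate 1. The Log2FC was 2.56 ± 0.41 (SE) in sedentary rats, a 5.88-fold difference, and 2.08 ± 0.41 in trained rats, a 4.24-fold difference.

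Both genes met the DEG criterion in both monocrotaline comparisons, which makes 2 of the 8 enzymes in each. Over all genes 1.87% met it in Sed vs. CC-Sed and 0.525% in Ex vs. CC-Ex. Because the set was chosen on this contrast, nothing is read from these counts. The sedentary Prodh call was kept without each of the 24 rats in turn. The Glul call was lost without Sed replicate 2, Sed replicate 5, CC-Sed replicate 3 or CC-Sed replicate 6, with a Log2FC of at least 1.14 with each rat left out. In trained rats the calls depended on more animals, since Glul lost its call without any of Ex replicates 2 to 6, CC-Ex replicate 5 or CC-Ex replicate 6, and Prodh without any of the 6 Ex rats or CC-Ex replicate 6. The Log2FC there stayed at or above 1.57 for Glul and 1.77 for Prodh in all these fits. In Ex vs. CC-Ex, neither gene met the criterion when only the 12 rats of the comparison were fitted, and Glul alone met it with library number as a covariate.

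RefSeq (GRCr8) lists 2 start sites for rat Glul. The 250 bases before each are shown with those before Gpt2, an enzyme of the set whose level lay on the other side of saline. Capitals mark the letters CACCC on either strand, a short box bound by Klf-type zinc finger factors.
Glul, chr13:68519250-68519499, plus strand: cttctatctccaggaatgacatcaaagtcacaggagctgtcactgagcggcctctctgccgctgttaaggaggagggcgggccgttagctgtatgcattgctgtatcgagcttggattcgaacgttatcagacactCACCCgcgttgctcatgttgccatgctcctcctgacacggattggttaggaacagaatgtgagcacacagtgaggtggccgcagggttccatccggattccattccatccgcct
Glul, chr13:68575816-68576065, plus strand: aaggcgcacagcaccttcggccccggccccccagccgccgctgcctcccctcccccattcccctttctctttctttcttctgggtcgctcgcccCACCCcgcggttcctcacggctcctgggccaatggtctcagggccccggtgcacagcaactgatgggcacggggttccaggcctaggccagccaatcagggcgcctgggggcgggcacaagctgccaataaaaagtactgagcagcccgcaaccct
Gpt2, chr19:37732760-37733009, minus strand: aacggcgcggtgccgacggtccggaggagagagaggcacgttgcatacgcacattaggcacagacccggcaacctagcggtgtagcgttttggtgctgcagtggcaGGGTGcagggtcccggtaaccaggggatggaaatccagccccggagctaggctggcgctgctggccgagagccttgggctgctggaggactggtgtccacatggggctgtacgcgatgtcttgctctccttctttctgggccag
Each of the 3 windows holds this box 1 time. The windows of Bcat2 and Got2 hold it 1 time each and that of Bckdk 2 times, while those of Glud1 and Got1 lack this box. Binding to it was not tested. It is common, being in 49.2% of all 33469 RefSeq windows of this length. The letters AGAACA, a part of glucocorticoid receptor sites (in 17.5% of all windows), and the FoxO core GTAAACA (in 3.21%) were searched on both strands and are in none of the 8 windows found for 7 of the 9 genes. No window was found for Prodh or Bckdha, so neither was searched. The downstream Glul window also holds the letters CCAAT 3 times and the upstream window 1 time, a box found in 34% of all windows. The window of Got1 holds CCAAT 6 times. A match of these letters is a description and not a binding site, and a missing match says only that these letters are not in this window. Several Glul and Got2 pseudogenes are annotated in the rat, so reads of these genes may be shared with near-identical copies and their levels are uncertain to that extent.

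**Figure D2:**
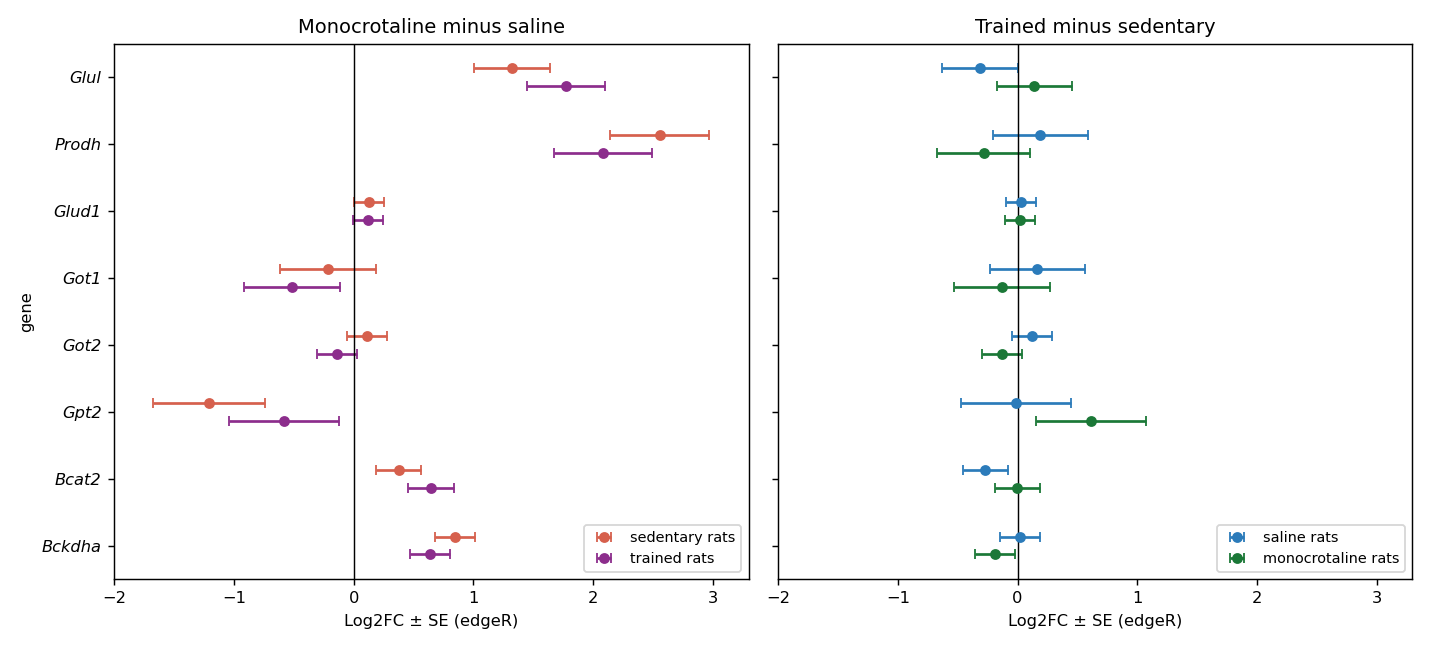
Log2FC of the 8 enzymes (horizontal axis, edgeR estimate with SE as bars) for monocrotaline minus saline (left panel) and trained minus sedentary (right panel). In the left panel Glul and Prodh lie right of 1 and Gpt2 left of 0 in both comparisons. In the right panel no estimate is farther from 0 than 0.62.

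The other glutamate enzymes had smaller differences. Glud1 encodes glutamate dehydrogenase, which releases ammonia from glutamate. Its mean level was 158 CPM (Sed), 161 CPM (Ex), 172 CPM (CC-Sed) and 175 CPM (CC-Ex), and the Log2FC was 0.13 ± 0.13 (SE) in sedentary and 0.12 ± 0.13 in trained rats. These neighbouring means differed by less than the SD of any group, which lay between 18.2 and 31.7 CPM.

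Got1 and Got2 encode the cytosolic and mitochondrial aspartate aminotransferases, both part of the malate-aspartate shuttle that carries reducing power into mitochondria. Got1 ranged from 170 to 461 CPM in Sed (median 321 CPM), from 189 to 590 CPM in Ex (median 383 CPM), from 141 to 628 CPM in CC-Sed (median 187 CPM) and from 80.9 to 443 CPM in CC-Ex (median 243 CPM). Its Log2FC was -0.22 ± 0.40 (SE) in sedentary and -0.51 ± 0.40 in trained rats. The lowest CC-Ex value belonged to replicate 5, and the highest CC-Sed value to replicate 4. Without CC-Sed replicate 4 the sedentary Log2FC was -0.61, and without CC-Sed replicate 6 it was -0.09. Got2 had group means between 638 and 703 CPM and a Log2FC of 0.11 ± 0.17 and -0.14 ± 0.17. Its sedentary sign turned, to -0.01, without CC-Sed replicate 4. All groups overlapped for both genes.

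Gpt2 encodes the mitochondrial alanine aminotransferase, which moves the amino group of glutamate to pyruvate. Levels in Sed rats lay between 69.1 and 142 CPM (median 94.0 CPM), while those in CC-Sed rats lay between 10.5 and 97.7 CPM (median 43.0 CPM). In CC-Sed, 5 of 6 rats were below every Sed rat and replicate 2 was inside the Sed range. Ex rats ranged from 46.3 to 125 CPM (median 108 CPM) and CC-Ex rats from 20.9 to 160 CPM (median 57.7 CPM), with 2 CC-Ex rats below every Ex rat and 1, replicate 4, above all of them. The Log2FC was -1.21 ± 0.47 (SE) in sedentary rats, a 2.31-fold lower level and -0.58 ± 0.46 in trained rats. Gpt2 did not meet the DEG criterion in either comparison. It met it in Sed vs. CC-Sed without CC-Sed replicate 2, where the Log2FC was -1.63, and by limma-voom, while the sedentary Log2FC without CC-Sed replicate 1 was -1.02. In Ex vs. CC-Ex the Log2FC ran from -1.07 without CC-Ex replicate 4 to -0.40 without CC-Ex replicate 5, and the criterion was met in none of these fits.

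Branched-chain amino acids are transaminated by the enzyme of Bcat2, and the resulting ketoacids are oxidized by a complex whose E1 alpha subunit is encoded by Bckdha. Bcat2 ranged from 102 to 134 CPM in Sed (median 117 CPM) and from 93.8 to 232 CPM in CC-Sed (median 135 CPM). It ranged from 68.9 to 133 CPM in Ex (median 97.4 CPM) and from 122 to 200 CPM in CC-Ex (median 149 CPM). The Log2FC was 0.38 ± 0.19 (SE) and 0.65 ± 0.19. In trained rats 5 of 6 CC-Ex rats were above every Ex rat, while in sedentary rats 3 of 6 CC-Sed rats were above every Sed rat.

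Bckdha ranged from 95.2 to 128 CPM in Sed (median 106 CPM) and from 132 to 285 CPM in CC-Sed (median 189 CPM). Every CC-Sed rat was above every Sed rat. In Ex the range was 84.7 to 146 CPM (median 107 CPM) and in CC-Ex 113 to 228 CPM (median 170 CPM), with overlap only through CC-Ex replicate 4. The Log2FC was 0.85 ± 0.17 (SE), or 1.80-fold, in sedentary rats and 0.64 ± 0.17, or 1.56-fold, in trained rats. With the size limit set aside, Bckdha joined Glul and Prodh in Sed vs. CC-Sed, so that 3 of 8 enzymes had an adjusted p-value under 0.05 in edgeR, where 6.46% of all genes did. In Ex vs. CC-Ex it was 2 of 8 beside 0.995%. By DESeq2 and by limma-voom Bcat2 and Bckdha also passed in Ex vs. CC-Ex, which makes 4 of 8, beside 6.44% of all genes by DESeq2 and 9.61% by limma-voom. Bckdha passed there with the slow-fibre score as a covariate too. In Sed vs. CC-Sed DESeq2 passed the same 3 enzymes as edgeR (12.6% of all genes) and limma-voom added Gpt2 (22.8%). Here and below, shares by DESeq2 are over the 10630 genes to which it gave an adjusted p-value. Prodh and Bckdha were the 2 enzymes whose sedentary groups did not overlap, beside 3.61% of all genes, and none of the 8 was without overlap in trained rats, beside 1.08%. The median Log2FC of the 8 enzymes was 0.25 in sedentary and 0.38 in trained rats, and that of all genes 0.02 and 0.01.

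Training was compared within saline and within monocrotaline rats, a contrast that shares its groups with those above. The enzyme set had no DEG in Sed vs. Ex or in CC-Sed vs. CC-Ex, and over all genes 0% were called in each. No enzyme reached an unadjusted p-value under 0.05 in the edgeR quasi-likelihood test, where 1.09% of all genes did in Sed vs. Ex and 2.16% in CC-Sed vs. CC-Ex, and DESeq2 and limma-voom called none as a DEG either. The lowest unadjusted p-value was 0.167 in Sed vs. Ex and 0.197 in CC-Sed vs. CC-Ex. For Glul the Log2FC of trained over sedentary was -0.31 (95% interval -0.96 to 0.34) in saline rats and 0.14 (-0.51 to 0.79) in monocrotaline rats. For Prodh these were 0.19 (-0.63 to 1.01) and -0.28 (-1.08 to 0.52). The widest gap was that of Gpt2 in monocrotaline rats, at 0.62 (-0.34 to 1.57), so a difference of more than 2-fold in its level is inside the interval. Glud1 had the narrowest interval, at 0.02 (-0.24 to 0.29) in monocrotaline rats.

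Whether the monocrotaline effect itself differed between trained and sedentary rats was tested as an interaction. None of the 8 enzymes was called, beside 0% of all genes, and none had an unadjusted p-value under 0.05, beside 1.42% of all genes (the lowest was 0.291, with adjusted p-values from 0.9996 in the edgeR quasi-likelihood test). The interaction Log2FC was 0.45 (95% interval -0.46 to 1.37) for Glul, -0.47 (-1.62 to 0.67) for Prodh and 0.63 (-0.72 to 1.97) for Gpt2. These intervals leave room for a difference in either direction.

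The other genes of the same routes were then taken from lists of 89 further genes, of which 71 were measured. By DEG criterion 2 of the 71 were called in Sed vs. CC-Sed (Dbt and Slc7a8, both higher) and 1 in Ex vs. CC-Ex (Slc7a6, higher), beside 1.87% and 0.525% of all genes. By adjusted p-value alone 8 of the 71 were called in sedentary rats (6 higher, 2 lower) and 1 in trained rats, beside 6.46% and 0.995% of all genes. At an unadjusted p-value under 0.05 there were 26 of 71 and 22 of 71, beside 28.4% and 22.6% of all genes, and the median Log2FC of the 71 was 0.12 and 0.05. In sedentary rats the count of 2 became 0 without Sed replicates 2, 5 or 6 or CC-Sed replicates 1, 3 or 6, 1 without Sed replicates 1, 3 or 4 or Ex replicate 6, 4 without CC-Sed replicate 2 or CC-Ex replicate 4, and 5 without CC-Sed replicate 4 or CC-Ex replicate 5. In trained rats the count of 1 became 0 without any 1 of the Sed or Ex rats, CC-Sed replicates 1, 5 or 6 or CC-Ex replicates 3, 5 or 6, 2 without CC-Sed replicate 3, 3 without CC-Sed replicate 4, 4 without CC-Ex replicate 1 and 5 without CC-Ex replicate 4.

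**Figure D3:**
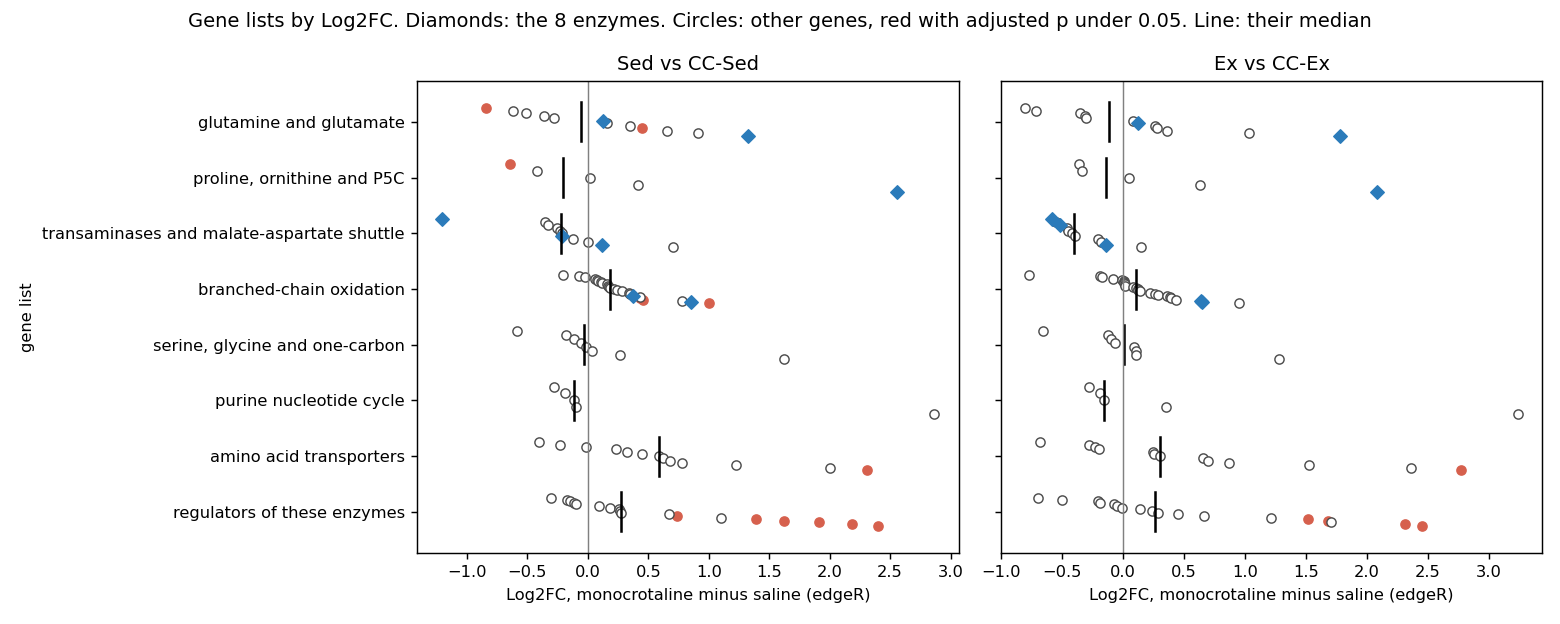
Log2FC of monocrotaline minus saline (horizontal axis) for the genes of each list (vertical axis) in sedentary rats (left) and trained rats (right). Diamonds are the 8 enzymes, circles are the other genes (red with an adjusted p-value under 0.05 in edgeR) and the line is the median of the circles. The branched-chain oxidation list leans right of 0, and the regulators hold 6 red circles at left and 4 at right.

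Among the 10 other measured genes of glutamine and glutamate use, Gmps rose and Ppat fell in CC-Sed rats. Gmps, the glutamine-using GMP synthetase, had a Log2FC of 0.45 ± 0.09 (SE) and an adjusted p-value of 0.00965 in edgeR, and its groups did not overlap. Ppat, which takes the amide of glutamine into purine synthesis, had a Log2FC of -0.84 ± 0.20 (adjusted p = 0.0193), again without overlap. The Ppat call was lost without Sed replicate 2 or CC-Sed replicate 6. In trained rats none of the 10 was called by edgeR (6 at an unadjusted p-value under 0.05), 2 by DESeq2 and 5 by limma-voom at the same adjusted threshold. The shares of all genes there were 0.995% by edgeR (22.6% unadjusted), 6.44% by DESeq2 and 9.61% by limma-voom. Ppat and Gmps had the lowest edgeR p-values, with a Log2FC of -0.71 (adjusted p = 0.068) and 0.28 (adjusted p = 0.089). The median of the list was -0.06 in sedentary and -0.11 in trained rats.

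Of the proline and ornithine list 4 of 10 other genes were measured. Pycr1, the mitochondrial enzyme that makes proline, fell in CC-Sed rats without overlap, with means of 3.74 CPM (Sed) and 2.39 CPM (CC-Sed). The Log2FC was -0.64 ± 0.16 (SE), with an adjusted p-value of 0.0225 in edgeR. The call was lost without Sed replicates 2, 3 or 5. The direction is opposite to that of Prodh, which runs the reverse step of the route. In trained rats none of the 4 was called by edgeR (2 at an unadjusted p-value under 0.05), while Oat was the 1 gene called by DESeq2 and by limma-voom. Beside these stand 0.995% of all genes by edgeR (22.6% unadjusted), 6.44% by DESeq2 and 9.61% by limma-voom. In edgeR Pycr1 then had a Log2FC of -0.36 (adjusted p = 0.181), and Oat, which converts ornithine to the same intermediate, had 0.64 (adjusted p = 0.0517).

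None of the 8 other transaminase and shuttle genes was called in either comparison at an adjusted p-value under 0.05 in edgeR (at an unadjusted p-value under 0.05, 1 in sedentary and 0 in trained rats), and DESeq2 and limma-voom called 0 as well. The unadjusted shares of all genes were 28.4% in sedentary and 22.6% in trained rats. In each comparison 7 of the 8 had a Log2FC below 0, with a median of -0.22 and -0.40. Slc25a22, a mitochondrial glutamate carrier, was the exception in sedentary rats at 0.71 ± 0.30 (SE, adjusted p = 0.134). Gpt, the cytosolic alanine aminotransferase, had a Log2FC of -0.36 in sedentary rats (adjusted p = 0.423) and -0.55 in trained rats (adjusted p = 0.253).

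The branched-chain oxidation list was measured in full apart from Bckdk. Of its 23 other genes, 4 rose in CC-Sed rats and none fell, beside 6.46% of all genes with an adjusted p-value under 0.05 in edgeR. DESeq2 and limma-voom called 6 each, all higher, beside 12.6% and 22.8% of all genes. At an unadjusted p-value under 0.05 in edgeR there were 7, all higher, beside 28.4% of all genes. Of the 23, 20 had a Log2FC above 0, where 52.5% of all genes did, and the median was 0.19. The 4 were Dbt, the E2 subunit of the ketoacid dehydrogenase, Acadsb, which oxidizes the product of isoleucine, and Hibadh and Aldh6a1, which act on valine. Dbt had a mean of 60.7 CPM in Sed and 122 CPM in CC-Sed, with a Log2FC of 1.00 ± 0.25 (SE) and an adjusted p-value of 0.0225 in edgeR. Acadsb had a Log2FC of 0.43 (adjusted p = 0.0302), Hibadh 0.45 (adjusted p = 0.0497) and Aldh6a1 0.36 (adjusted p = 0.0479). The Log2FC of Dbt lay at the size limit. Dbt was no DEG without Sed replicates 2, 5 or 6 or CC-Sed replicates 1, 3 or 6. The same held without Ex replicate 6 or CC-Ex replicate 5. Nor was it a DEG by DESeq2, limma-voom or upper-quartile scaling, with only the 12 rats or with the replicate block. By adjusted p-value alone, the Dbt call was lost without Sed replicates 2 or 5 or CC-Sed replicates 3 or 6. That of Acadsb was lost without Sed replicates 2, 4, 5 or 6 or CC-Sed replicates 1 or 6. Hibadh kept its call in 4 and Aldh6a1 in 8 of the 24 fits that leave out a rat, so both lie at the threshold, and either call was lost without any 1 of the 6 Sed rats.

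In trained rats none of the 23 was called by edgeR (6 at an unadjusted p-value under 0.05, all higher), 2 by DESeq2 and 7 by limma-voom, all higher. Over all genes the shares were 0.995% by edgeR (22.6% unadjusted), 6.44% by DESeq2 and 9.61% by limma-voom. Of the 23, 18 had a Log2FC above 0, where 51.6% of all genes did, and the median was 0.11. Dbt, at 0.95 ± 0.25 (SE, adjusted p = 0.0562), and Acadsb, at 0.43 ± 0.11 (adjusted p = 0.0589), had the lowest p-values, and in both genes every CC-Ex rat was above every Ex rat.

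The subunits of the ketoacid dehydrogenase did not share a size of difference. Beside Bckdha and Dbt, the E1 beta subunit Bckdhb had a Log2FC of -0.07 ± 0.12 (SE) in sedentary and -0.17 ± 0.12 in trained rats, and the E3 subunit Dld, which other complexes also use, had -0.02 ± 0.18 and -0.19 ± 0.18. Neither was called (lowest adjusted p = 0.374 in edgeR). Ppm1k, the phosphatase that switches the complex on, had a mean of 11.6 CPM in Sed and 19.9 CPM in CC-Sed, a Log2FC of 0.78 ± 0.24 with an adjusted p-value of 0.0546, and 0.36 ± 0.24 in trained rats (adjusted p = 0.361). Bckdhb, Dld and Ppm1k were picked here for their place in the complex after their values were seen.

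**Figure D4:**
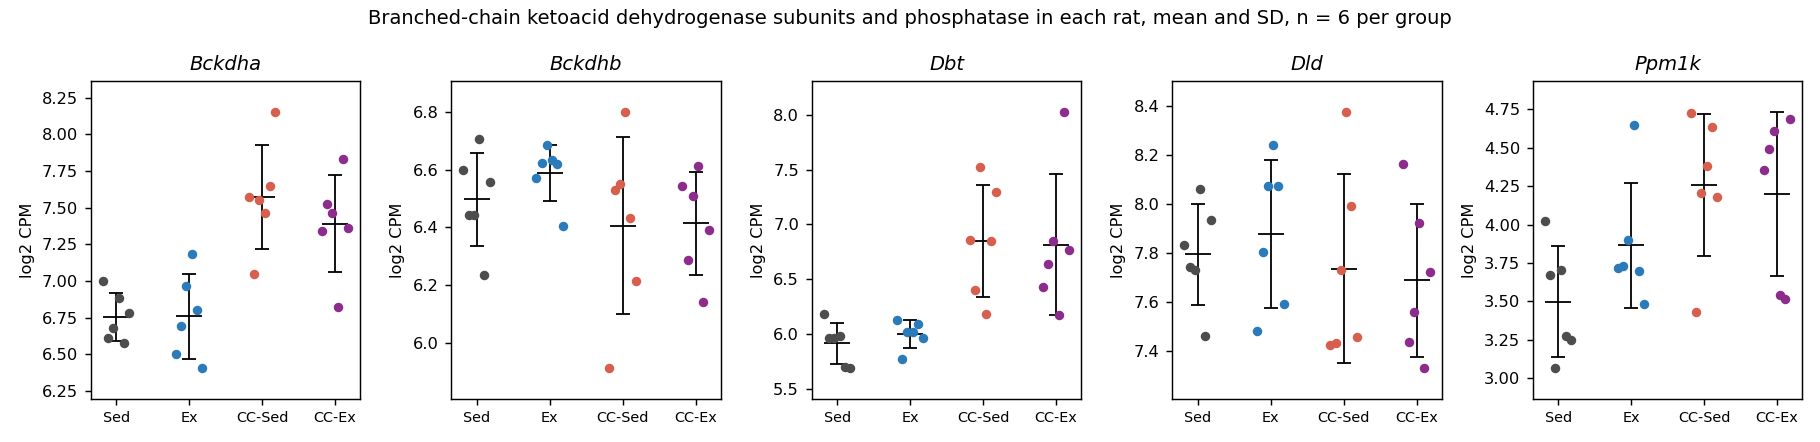
Level (log2 CPM, vertical axis) of 4 subunits of the branched-chain ketoacid dehydrogenase and of its phosphatase Ppm1k in every rat, by group (horizontal axis), with mean and SD of 6 rats. Bckdha and Dbt are shifted upward in both CC groups, while Bckdhb and Dld overlap broadly among the 4 groups.

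Regulators and signalling genes formed the last list, with all 18 measured. Not all of them are known to act on these enzymes. The list was chosen with earlier results of these data known, so its counts are a description. In CC-Sed rats 6 rose and none fell, and in CC-Ex rats 4 rose and none fell, all by edgeR adjusted p-value, beside 6.46% and 0.995% of all genes. DESeq2 called 6 in sedentary and 8 in trained rats and limma-voom 8 and 6, all higher, beside shares of all genes that were larger as well (12.6% and 6.44% by DESeq2, 22.8% and 9.61% by limma-voom). The median Log2FC was 0.27 in each comparison. Klf15, a glucocorticoid-induced activator of amino acid catabolism in muscle, rose in CC-Sed rats, where it lay between 55.4 and 124 CPM against 23.8 to 41.1 CPM in Sed, without overlap (Log2FC 1.39 ± 0.35 SE, adjusted p = 0.0236). In trained rats its Log2FC was 1.68 ± 0.35 (adjusted p = 0.0325). Foxo1 and Foxo3, transcription factors of muscle wasting, had a Log2FC of 2.40 (adjusted p = 0.0138) and 1.62 (adjusted p = 0.0137) in sedentary rats and of 2.45 (adjusted p = 0.0329) and 1.52 (adjusted p = 0.035) in trained rats. Sesn1, a leucine-binding inhibitor of mTOR signalling, rose with a Log2FC of 2.19 (adjusted p = 0.0177) and 2.31 (adjusted p = 0.0342).

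Fkbp5, a glucocorticoid-induced chaperone, rose in CC-Sed rats with a Log2FC of 1.91 (adjusted p = 0.0148 in edgeR), and Ppard, a nuclear receptor of oxidative metabolism, rose with 0.73 (adjusted p = 0.021) and was named to complete the 6 after its values were seen. In trained rats Fkbp5 had means of 38.3 CPM (Ex) and 124.7 CPM (CC-Ex) and a Log2FC of 1.70 ± 0.43 (SE, adjusted p = 0.0517), and Ppard a Log2FC of 0.67 ± 0.18 (adjusted p = 0.0616). There DESeq2 called both genes and limma-voom Ppard. The transcript of the glucocorticoid receptor itself, Nr3c1, had a Log2FC of -0.12 ± 0.09 (SE, adjusted p = 0.413) and -0.07 ± 0.09 (adjusted p = 0.633). Atf4, which drives the amino acid shortage response, had 0.28 (adjusted p = 0.394) and 0.45 (adjusted p = 0.209), and Ppargc1a, a coactivator of mitochondrial genes, was 2.15-fold higher in CC-Sed (adjusted p = 0.122) with a Log2FC of 0.14 in trained rats (adjusted p = 0.861). In sedentary rats the calls of Foxo1, Foxo3, Sesn1 and Fkbp5 were kept in all 24 fits that leave out a rat, while that of Klf15 was lost without Sed replicates 2, 3 or 5 or CC-Sed replicates 1, 3 or 6 and that of Ppard without Sed replicates 2 or 3. In trained rats all 4 calls were lost without any 1 of the Ex rats and without CC-Ex replicate 5 or 6, and that of Foxo3 also without CC-Ex replicate 3. All 4 were also lost with only the 12 rats of the comparison and with the replicate block, those of Foxo1, Foxo3 and Sesn1 with upper-quartile scaling, and that of Foxo3 with library number as a covariate. Without CC-Ex replicate 5 the trained Log2FC was 1.20 for Klf15, 1.94 for Foxo1, 1.05 for Foxo3 and 1.67 for Sesn1.

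Rat-to-rat variation was described after the group means were removed, over 24 rats, as a correlation of log2 CPM. Values of a rat come from the same library, so the points share its depth and fibre makeup, and no p-value is given. Among the 28 pairs of the 8 enzymes, 3 had a Pearson r above 0.5 and 3 below -0.5. Got1 and Got2 varied together (r = 0.92, Spearman rho 0.90), as did Glud1 with Got1 (r = 0.86, rho 0.82) and with Got2 (r = 0.73, rho 0.71). Gpt2 and Bckdha varied in opposite directions (r = -0.82, rho -0.80, and r = -0.89 without the 2 rats farthest from the Gpt2 median). CC-Sed replicate 2, the CC-Sed rat with the highest Gpt2, had the lowest Bckdha of its group. CC-Sed replicate 6, with Gpt2 at 11.8 CPM, had the highest Bckdha of all 24 rats. In CC-Ex the same held for replicate 4, with the highest Gpt2 (160 CPM) and the lowest Bckdha (113 CPM) of its group, and for replicate 5, with the lowest Gpt2 (20.9 CPM) and the highest Bckdha (228 CPM). Bcat2 ran against Got2 (r = -0.72, rho -0.73) and Got1 (r = -0.58, rho -0.63). Glul and Prodh, the enzymes with the largest differences after monocrotaline, had r = 0.44 (rho 0.51).

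**Figure D5:**
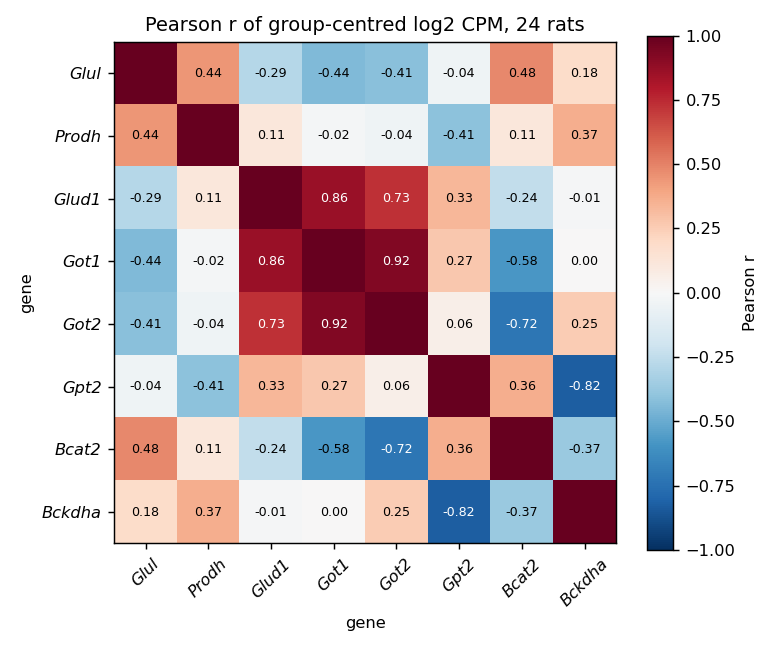
Pearson r between each pair of the 8 enzymes (both axes) over 24 rats, from log2 CPM with group means removed. Colour gives r from -1 (blue) to 1 (red). Got1, Got2 and Glud1 form a positive block, and the strongest negative value is that of Gpt2 with Bckdha, at -0.82.

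The enzymes also varied, to differing degrees and in both directions, with slow-fibre markers and with the leading principal component. Of 7 slow-fibre markers 4 were measured (Tnnc1, Tnni1, Myl3 and Tpm3), and their mean log2 CPM had r = 0.57 with Glud1 (rho 0.60), 0.56 with Got1 (rho 0.57) and 0.53 with Got2 (rho 0.49) over the 24 group-centred rats. For Glul r was -0.35 (rho -0.35) and for Prodh 0.48 (rho 0.45). For Bckdha r was 0.42 (rho 0.45), for Bcat2 -0.40 (rho -0.34) and for Gpt2 -0.34 (rho -0.38). Without the 2 rats farthest from the median of this score, r was 0.59 for Bckdha, -0.62 for Bcat2 and -0.50 for Gpt2. In that setting it was 0.47 for Glud1, 0.61 for Got1, 0.60 for Got2, -0.30 for Glul and 0.32 for Prodh. With the leading principal component of all genes, centred in the same way, r was -0.81 for Glud1 (rho -0.73), -0.79 for Got1 (rho -0.72), -0.61 for Gpt2 (rho -0.43), -0.57 for Got2 (rho -0.46), 0.53 for Glul (rho 0.49), 0.46 for Bckdha (rho 0.21) and 0.11 for Prodh (rho 0.20). For Bcat2 r was 0.16 (rho 0.23). That component is computed from all genes, these enzymes included, and CC-Ex replicate 5 lies at its far end. The summed level of these markers ran from 56.8 to 2102 CPM in Sed, 59.9 to 6439 CPM in Ex, 81.0 to 7381 CPM in CC-Sed and 16.9 to 5285 CPM in CC-Ex. Its medians were 973 CPM (Sed), 1953 CPM (Ex), 3605 CPM (CC-Sed) and 2956 CPM (CC-Ex), the median Log2FC of the 4 was 1.83 in sedentary and 0.10 in trained rats, and none of the 4 was called in either monocrotaline comparison by edgeR, DESeq2 or limma-voom (0 at an unadjusted edgeR p-value under 0.05). The authors' own tests reported these 4 genes among the most upregulated in CC-Sed rats, and why the fits here differ was not tested. With the slow-fibre score as a covariate Glul and Prodh kept their DEG calls in both comparisons. Of the 6 fibroblast markers, all were measured and none was called in edgeR, while their summed level had a median of 1597 CPM in Sed and 792 CPM in CC-Sed, and of 2063 CPM (Ex) and 474 CPM (CC-Ex) in trained rats. In Ex vs. CC-Ex 3 of the 6 had an unadjusted p-value under 0.05 in edgeR, and DESeq2 called 3 and limma-voom 1, all lower. Over all genes the shares were 22.6% unadjusted in edgeR, 6.44% by DESeq2 and 9.61% by limma-voom.

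Markers of other cells were examined in the same way. Of the endothelial markers 5 of 7 were measured, and Vwf rose in both comparisons (Log2FC 1.41 ± 0.26 SE, adjusted p = 0.00596, and 1.12 ± 0.26, adjusted p = 0.0383, in edgeR), while the summed level overlapped, with medians of 191 CPM (Sed), 237 CPM (CC-Sed), 197 CPM (Ex) and 268 CPM (CC-Ex). The median Log2FC of the 5 was -0.25 in sedentary and 0.05 in trained rats. In sedentary rats DESeq2 and limma-voom each called 3 of the 5 (Vwf, Kdr and Tie1), 2 of them higher. In trained rats DESeq2 called Vwf alone and limma-voom called Vwf and Kdr, all higher. Of the erythroid markers 3 of 4 were measured. In trained rats their summed level had a median of 151 CPM in Ex (92.2 to 210 CPM) and 318 CPM in CC-Ex (33.8 to 960 CPM), with a median Log2FC of 1.43, and all 3 had an unadjusted p-value under 0.05 in edgeR, where limma-voom called 3, DESeq2 0 and edgeR 0. In sedentary rats the median Log2FC was 0.68 with none called by these tools (0 at an unadjusted edgeR p-value under 0.05). Of the Schwann cell markers 3 of 6 were measured, with a median Log2FC of -0.11 in sedentary and -0.99 in trained rats, where 3 of 3 had an unadjusted p-value under 0.05 and none was called by edgeR, DESeq2 or limma-voom. The 3 measured adipocyte markers had a median Log2FC of -0.70 and -1.16, with none called by these tools (0 at an unadjusted edgeR p-value under 0.05). Of the satellite cell markers 4 of 5 were measured, with a median Log2FC of -0.02 in sedentary and 0.41 in trained rats. In sedentary rats DESeq2 and limma-voom each called Myf5 and Myod1, 1 of them higher. In trained rats limma-voom called Cdh15, higher, and DESeq2 0. EdgeR called 0 (2 and 1 at an unadjusted p-value under 0.05). None of the 6 macrophage or 6 fast-fibre markers measured was called by these tools (unadjusted 0 and 1 in sedentary, 0 and 0 in trained rats). Beside these marker counts, 28.4% of all genes had an unadjusted edgeR p-value under 0.05 in sedentary and 22.6% in trained rats. By adjusted p-value the shares were 6.46% and 0.995% by edgeR, 12.6% and 6.44% by DESeq2, and 22.8% and 9.61% by limma-voom. The part of these markers, of slow fibres and of fibroblasts in the enzyme levels was not tested beyond the fit with the slow-fibre score.

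Genes outside the set with the pattern most like Glul within groups, by the same group-centred Pearson r over 24 rats, were Cebpd (r = 0.82), Slc25a38 (0.81), Gadd45g (0.80), Mepce (0.80) and Klf9 (0.79). Cebpd and Klf9 encode transcription factors known to respond to glucocorticoids. Cebpd had a Log2FC of 2.58 ± 0.58 (SE) in sedentary rats and 2.67 ± 0.58 in trained rats, with adjusted p-values of 0.0147 and 0.0329 in edgeR. Klf9 had 0.74 ± 0.17 (adjusted p = 0.0147) and 0.58 ± 0.17 (adjusted p = 0.0734). For Prodh the nearest were Fam124a (r = 0.78), Sh3rf2 (0.78), Eif3f (0.76), Rpl31 (0.75) and Rpl23a (0.75). Sh3rf2 had a Log2FC of 1.73 ± 0.38 (adjusted p = 0.014) in sedentary rats and 1.35 ± 0.38 (adjusted p = 0.0678) in trained rats, and Rpl31, a ribosomal protein gene, 0.08 ± 0.09 and 0.06 ± 0.09.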

How the data were processed

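The authors ran Trim Galore, then Salmon against transcripts of the mRatBN7.2 build, and collapsed transcripts to genes by tximport. What they deposited is a table of estimated counts as whole numbers, not scaled for library size, and none is under 10. The poly-A libraries were stranded.

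The tests ran in edgeR 4.0.16 (R 4.3.3). A quasi-likelihood F test with TMM scaling was fitted to the 4 groups of 24 rats on all 10851 genes, with Benjamini-Hochberg adjustment over all of them. The filter on expression removed no gene. The SE is the Log2FC divided by the square root of F. Alternatives were DESeq2 1.42.0, upper-quartile scaling, no filter, a minimum of 10 counts, only the 12 rats of a comparison, a replicate block, library number or slow-fibre score as a covariate, limma-voom with quality weights (limma 3.58.1), the adjusted p-value alone and each rat left out. The submitters' processing notes name DESeq2 1.44.0 for their own tests. The code was checked on simulated data. Correlations used log2 CPM with a prior count of 2.

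The enzymes, lists and tests were chosen with earlier results of these data known. Named genes were the enzymes, up to 4 genes per list with an adjusted p-value under 0.05 (otherwise the 2 with the lowest p-value), 6 regulators, and the 5 genes most like Glul and like Prodh. Promoter windows came from RefSeq (GRCr8), and only the 250 bases before each start were used. The replicate numbers join different animals, and the main model had no block. For the enzymes, counting error alone gave a coefficient of variation between 0.324% and 8.38% within a group, beside 11.2% to 75.3% between rats.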

Additional observations from a re-analysis of the deposited data

Results flagged for a closer look

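Each of the 32 sets of 6 values (8 enzymes in 4 groups) was examined for a highest or lowest rat set far from its nearest neighbour by Dixon's ratio, and 3 stood out. Chance alone flags about 1 in 20 such sets. Prodh was at 8.46 CPM in Ex replicate 1, above the other Ex rats, which lay between 4.40 and 5.57 CPM. Glud1 was at 121 CPM in CC-Ex replicate 5, the rat that also stood apart on the leading principal component, below the other CC-Ex rats at 170 to 199 CPM. Gpt2 was at 160 CPM in CC-Ex replicate 4, above the other CC-Ex rats at 20.9 to 67.3 CPM.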

How the results depend on the processing

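In Sed vs. CC-Sed the 2 enzymes called stayed between 2 and 3 under the other settings, with 3 by limma-voom (Gpt2 added) and 3 by adjusted p-value alone (Bckdha added), and between 1 and 3 with each rat left out. In Ex vs. CC-Ex the 2 became 0 with only the 12 rats of the comparison, 0 with the replicate block and 1 with library number as a covariate, and lay between 0 and 2 with each rat left out. The 2 further list genes called in Sed vs. CC-Sed became 4 by DESeq2, 1 by upper-quartile scaling, 0 with the replicate block, 5 with the slow-fibre score, 4 by limma-voom and 8 by adjusted p-value alone, and lay between 0 and 5 with each rat left out. The count was 3 with only the 12 rats, Dbt not among them, and 3 with library number as a covariate. The 1 called in Ex vs. CC-Ex became 4 by DESeq2 and 0 by upper-quartile scaling, with only the 12 rats, with the replicate block, with the slow-fibre score and by limma-voom, and lay between 0 and 5 with each rat left out. With library number as a covariate the count was again 1, but the gene was Ppat and not Slc7a6. The causes were not tested. Counts for training and the interaction were 0 under every setting run, and an interaction with only 12 rats could not be fitted.

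With each rat left out, the sedentary Log2FC of Got1 ran from -0.61 to -0.09 and the trained Log2FC of Gpt2 from -1.07 to -0.40, and of the enzymes only Got2 turned its sign, in sedentary rats without CC-Sed replicate 4. Of the 5 genes most like Glul, 3 were shared with those by Spearman rho and 3 with those without the 2 rats farthest from the median. For Prodh these were 3 and 2. Same-numbered rats did not all deviate together (mean r between -0.23 and 0.09 over the 4 comparisons, with 4 of 6 pairs over 0.1 in Sed vs. CC-Sed), so the replicate block joins rats that share only a number.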

Other observations

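Amino acid transporters, serine and glycine enzymes and the purine nucleotide cycle completed the lists. Of the 13 measured transporters, Slc7a8, a carrier of large neutral amino acids, rose in CC-Sed rats, with means of 17.9 CPM (Sed) and 88.3 CPM (CC-Sed, Log2FC 2.30 ± 0.65 SE, adjusted p = 0.0396 in edgeR). The CC-Sed rats ran from 19.8 to 216 CPM. This call was lost without any 1 of the Sed rats and without CC-Sed replicates 1, 3 or 6. In trained rats its means were 15.1 CPM (Ex) and 77.6 CPM (CC-Ex), with a Log2FC of 2.36 ± 0.65 (adjusted p = 0.0667 in edgeR), and DESeq2 called it. Slc7a6, a carrier of cationic and neutral amino acids, rose in CC-Ex rats (Log2FC 2.77 ± 0.67, adjusted p = 0.0443), where 1 rat stood at 495 CPM beside a group median of 26.9 CPM. Without CC-Ex replicate 5 its Log2FC was 1.18 and it was not called, and its call was kept in 6 of the 24 fits that leave out a rat. In sedentary rats Slc7a6 had means of 18.1 CPM (Sed) and 72.3 CPM (CC-Sed) without overlap, a Log2FC of 2.00 ± 0.65 and an adjusted p-value of 0.0624 in edgeR, and DESeq2 and limma-voom called it. Of the 13, edgeR called 1 in each comparison at an adjusted p-value under 0.05 (6.46% and 0.995% of all genes), DESeq2 4 and 3 (12.6% and 6.44%), and limma-voom 5 and 0 (22.8% and 9.61%). The median Log2FC of the 13 was 0.58 in sedentary and 0.31 in trained rats, beside 0.02 and 0.01 for all genes.

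None of the 8 serine, glycine and one-carbon genes and none of the 5 purine nucleotide cycle genes had an adjusted p-value under 0.05 in either comparison by edgeR. At an unadjusted p-value under 0.05 there were 2 and 1 in sedentary rats (28.4% of all genes), and 1 and 2 in trained rats (22.6%). Among the 8, DESeq2 called 0 and limma-voom 1 (Psph) in each comparison. Among the 5, DESeq2 called Ampd3 in both comparisons and limma-voom in sedentary rats. Mthfd1l, a mitochondrial folate enzyme, had a Log2FC of 1.63 (adjusted p = 0.0997) in sedentary and 1.28 (adjusted p = 0.223) in trained rats, and Psph, which makes serine, -0.59 (adjusted p = 0.141) and -0.66 (adjusted p = 0.146). Ampd3, an AMP deaminase that releases ammonia, spread between 7.95 and 443 CPM among CC-Sed rats and between 2.42 and 481 CPM among CC-Ex rats. The saline rats lay between 4.14 and 58.2 CPM (Sed) and between 5.87 and 16.8 CPM (Ex). Its Log2FC was 2.87 ± 1.04 (SE, adjusted p = 0.0855) and 3.24 ± 1.06 (adjusted p = 0.0989).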
